A study of Mus musculus with 196 samples.

Results

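Cytosolic ribosomal protein genes encode the structural proteins of the large and small subunits of the ribosome that works outside mitochondria. The members were the genes whose symbols have the form Rpl or Rps, a number and at most one of the letters a, x, y or l, together with Rplp0, Rplp1, Rplp2 and Rpsa, provided that they averaged 10 or more RPM (reads of a gene, scaled to a fixed total of reads per library) over all columns of the table. Of 25706 endogenous genes, 81 symbols matched and 80 met the threshold: 48 of the large subunit and 32 of the small subunit. The gene just outside it was Rpl3l, with a mean of 2.93 RPM and a value of 0 in 20 libraries, and the lowest members were Rpl10l, Rpl15 and Rpl39l, with means of 88.1, 204 and 236 RPM. Ribosomal proteins whose genes carry other names, such as Fau and Gnb2l1, and the paralogues Rpl22l1, Rpl36al and Rpl7l1 lie outside the naming rule and are given only beside the members.

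The study followed mouse primordial germ cell-like cells (PGCLCs), germ cells derived from embryonic stem cells, in culture, with 3′-end mRNA sequencing of 191 PGCLC libraries in 98 groups and 3 libraries of embryonic germ cells. All PGCLC lines were of 129S1:C57BL/6=1:1 background and carried the reporters Prdm1-mVenus Tg/0 and Dppa3-ECFP Tg/0; day 0 cells were sorted for the first reporter and cultured cells for the second, after growth on m220 feeder cells. OE_A2 (clone A2, labelled Zglp1OE) carried 2 piggyBac transgenes, the first a tetO/mCMV promoter ahead of Zglp1CDS and IRES-mCherry with an EF1a-Pac selection cassette, and the second EF1a-rtTA-IRES-Neo, so that doxycycline (Dox) drives the Zglp1 coding sequence. It was untreated at days 0 and 3 and then grown to day 4, 5, 7 or 9 with Dox and retinoic acid (DoxRA), Dox, SerumMinusWINDox, BMSDox, BMS, SerumMinusWIN, SerumMinus or no addition (control). BMS, WIN and SerumMinus are names from the labels that were not taken further here. OESko_A11 (clone A11) carried the same transgenes and Stra8-/-, and received DoxRA or control medium. Zko_E5 and Zko_G10 were clones with Zglp1-/- and received BMP2 with retinoic acid (B2RA), BMP2 or control medium. Sko_B6 and Sko_F6 were clones with Stra8-/- and received B2RA or control medium. H18, labelled the parental clone, carried no change beyond the reporters and received B2RA, RA, BMP2 or control medium, with no control libraries at day 9. The stage field of most H18 samples reads culture day 3.5 whatever their title, and the day used here is that of the title. The embryonic libraries were of ICR:C57BL/6=1:1 background, E9.5 primordial germ cells with Dppa3-EGFP Tg/0 and E14.5 and E15.5 fetal oocytes with Ddx4-RFP Tg/0, with 1 library per stage. Each line is 1 clone, and no line without the transgenes received Dox. Nearly all groups have n = 2 libraries that the labels do not describe as separate cultures. The spread behind each SE and p-value was estimated per gene from the replicates of all 98 PGCLC groups together, not from the compared libraries alone. It may be technical, and it can be smaller than the spread of the replicates printed beside it.

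A ribosome holds a copy of nearly every ribosomal protein, so cells make these proteins together and their mRNAs are among the most abundant in a growing cell. Many of these mRNAs begin with a C followed by a stretch of C and T, the terminal oligopyrimidine tract, which lets the growth-sensing kinase mTOR set how strongly they are translated. A few subunits also have a retrocopy or duplicate, such as Rpl10l for Rpl10 and Rpl39l for Rpl39, which in mice are known from the testis, where meiotic cells silence the X chromosome that carries the parent genes. Fetal germ cells of the female line enter meiosis, which the study approached in culture through ZGLP1, a GATA-type zinc finger protein, and STRA8, a protein induced by retinoic acid.

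The sequence around the start of transcription is shown for the members that vary most or that recur in the comparisons, because these are the letters in which a pyrimidine tract would lie. Each line gives 30 bases from RefSeq, build GRCm38.p6, from 10 bases before the start to 20 bases after it, with the longest unbroken run of C or T in capitals.
Rpl39l: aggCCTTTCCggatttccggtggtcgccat
Rpl39: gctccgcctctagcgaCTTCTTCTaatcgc
Rpl10l: CCTCCattttgcggctggcggtgggcacgc
Rpl10: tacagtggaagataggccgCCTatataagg
Rps4x: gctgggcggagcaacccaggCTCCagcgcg
Rpl15: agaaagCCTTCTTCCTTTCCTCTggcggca
Rps2: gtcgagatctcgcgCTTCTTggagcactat
Rpl38: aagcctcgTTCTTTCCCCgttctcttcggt
Rps27l: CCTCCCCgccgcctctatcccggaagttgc
The windows lie at chr16:10170218-10170247 (plus strand), chrX:37085203-37085232 (minus strand), chr12:66284382-66284411 (minus strand), chrX:74270806-74270835 (plus strand), chrX:102189372-102189401 (minus strand), chr14:18270967-18270996 (minus strand), chr17:24720053-24720082 (plus strand), chr11:114668570-114668599 (plus strand) and chr9:66946076-66946105 (plus strand). Rpl15, whose protein sits in the large subunit, had a run of 17 pyrimidines in this window, Rpl38 a run of 10 and Rpl39 a run of 8, whereas the runs of Rps4x and Rpl10 were 4 and 3 long. An entry existed for 59 of the 80 members. A run of 8 or more C or T on the transcribed strand was present in 23 of the 59 (39.0%), against 3517 of all 27025 genes (13.0%), and a C at the annotated start followed by 4 more pyrimidines in 13 of the 59 (22.0%), against 813 of all genes (3.01%). A start annotated a few bases off moves a tract within or out of these windows, and a window without a run says nothing about the mRNA itself.

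The 250 bases before the start of Rpl39l and of its X-linked parent Rpl39 are shown because Rpl39l was called between day 0 and culture in 3 lines, as described after the depth of the libraries, with each CG dinucleotide in capitals (RefSeq, GRCm38.p6, chr16:10169978-10170227 (plus strand) and chrX:37085223-37085472 (minus strand)).
Rpl39l: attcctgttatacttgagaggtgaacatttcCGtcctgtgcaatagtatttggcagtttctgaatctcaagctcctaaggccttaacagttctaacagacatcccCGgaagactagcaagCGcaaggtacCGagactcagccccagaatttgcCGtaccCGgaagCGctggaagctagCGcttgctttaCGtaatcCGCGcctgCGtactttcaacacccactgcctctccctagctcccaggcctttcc
Rpl39: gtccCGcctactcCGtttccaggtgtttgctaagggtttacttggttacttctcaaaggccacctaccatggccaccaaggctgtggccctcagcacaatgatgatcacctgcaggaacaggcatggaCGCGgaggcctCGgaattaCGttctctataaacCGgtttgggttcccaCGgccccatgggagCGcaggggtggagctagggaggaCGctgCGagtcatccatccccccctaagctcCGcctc
Both stretches held 12 CG dinucleotides, with a range of 5 to 31 and a median of 18 over the 59 members and a median of 6 over all genes. Methylation was not measured in these libraries.

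Between 877040 and 5196593 reads were assigned to genes in a library, and 1 read was worth 0.192 to 1.14 RPM. Reads were taken at the 3′ end of mRNAs, so levels are not divided by mRNA length. The summed level of the 80 members took a median of 22.5% of all assigned reads, with a range of 9.997% to 30.3%, and large contributors included Rplp1 (mean 7464 RPM), Rpl13 (6121 RPM) and Rpl10 (4885 RPM). The germ cell reporter gene Dppa3 had a median of 1013 RPM over the PGCLC libraries and Ddx4 a median of 64.2 RPM. The mCherry row of the Zglp1 transgene read 925 to 17416 RPM with Dox and 43.5 to 557 RPM without it in OE_A2, 305 to 5863 RPM and 150 to 329 RPM in OESko_A11, and at most 1.59 RPM in the other PGCLC lines. Reads at the 3′ end of Zglp1 remained in knockout libraries (32.7 and 20.3 RPM in Zko_E5 with B2RA at day 9), so these rows do not check the knockouts. The lowest summed levels were those of OE_A2 DoxRA replicate 2 at day 9 (9.997%) and OESko_A11 DoxRA replicate 1 at day 5 (11.2%). In these libraries 1153 other genes with mRNAs of at most 800 bases also took the small shares of 2.68% and 1.79% of reads. Results that rest on them are given with and without them. Fewer reads of a gene in such data can reflect fewer cells of a type, less of its RNA per cell, or more RNA of other genes, because RPM are shares of a fixed total. These cannot be told apart.

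**Figure D1:**
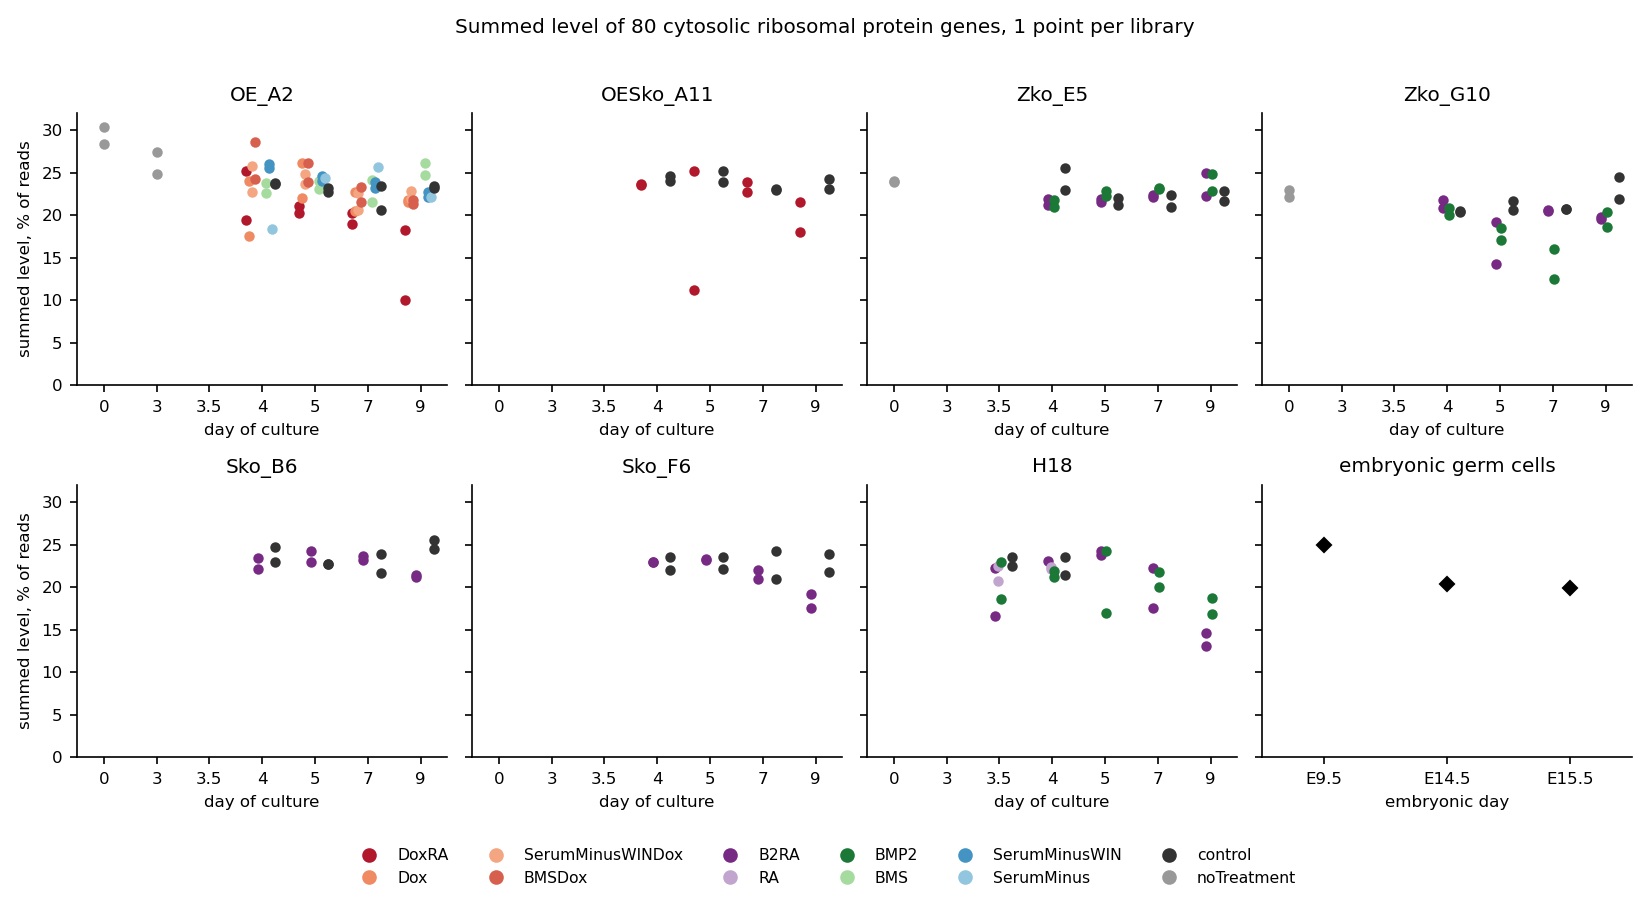
Summed level of the 80 members in each library, as a percent of reads assigned to genes, by day of culture in the 7 lines and by embryonic day. Each point is 1 library and colours mark the treatment. At day 9 the DoxRA points of OE_A2 lie at 18.2% and 9.997% and the B2RA points of H18 at 14.6% and 13.1%, and the day 0 points of OE_A2 lie at 30.3% and 28.4%.

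Rpl39l and Rpl10l were higher at day 3 (OE_A2) or day 4 (Zko_E5 and Zko_G10) than in freshly sorted day 0 PGCLCs of the same line. For Rpl10l single later libraries read as low as 21.0 RPM at day 7 and 13.5 RPM at day 9, below the lowest day 0 level of 24.0 RPM. Rpl39l read 293 and 283 RPM in untreated OE_A2 cells at day 3, against 31.8 and 23.7 RPM at day 0. It read 205 and 133 RPM in Zko_E5 control cells at day 4, against 23.8 and 29.1 RPM at day 0. In Zko_G10 control cells it read 175 and 126 RPM at day 4, against 23.3 and 29.6 RPM at day 0. In all 3 lines no library overlapped with the other day, and the log2 change was 3.34 ± 0.36 (SE; limma, Benjamini-Hochberg adjusted p = 9.49e-12) in OE_A2, 2.60 ± 0.36 (adjusted p = 2.69e-08) in Zko_E5 and 2.45 ± 0.36 (adjusted p = 1.86e-07) in Zko_G10. Its parent Rpl39, which encodes a small protein of the exit tunnel of the large subunit, was not called in any of the 3. Rpl10l, a retrocopy of Rpl10, moved the same way at lower levels, with 56.0 and 86.9 RPM at day 3 against 32.1 and 24.0 RPM at day 0 in OE_A2 (1.297 ± 0.375, adjusted p = 0.0271). It had 129 and 44.8 RPM at day 4 against 26.6 and 34.6 RPM at day 0 in Zko_E5 (1.2998 ± 0.375, adjusted p = 0.00616), and 95.0 and 41.6 RPM against 24.97 and 30.8 RPM in Zko_G10 (1.15 ± 0.38, adjusted p = 0.0314). The Rpl10l calls were lost without day 4 replicate 1 or day 0 replicate 1 in both knockout clones, without day 0 replicate 2 in Zko_G10, and without any 1 library in OE_A2. These day 0 contrasts of the knockout clones were chosen after the values had been seen. In all 3 lines day 0 cells were sorted for Prdm1-mVenus, and cultured cells for Dppa3-ECFP after growth on feeder cells. Time in culture, sorting reporter and feeder growth cannot be told apart here.

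In the fit of all groups, few members besides Rpl39l and Rpl10l were called over the same step, and the counts include these 2 genes. The counts depend on that fit. With only the groups compared, many more members were called in Zko_G10 and fewer in Zko_E5. A replicate block added to that fit also raised the count in OE_A2, although the pairing of replicates was not established. These counts are given in the closing section. In OE_A2 at day 3 against day 0, 2 of 80 members were higher and 0 lower, beside 4.31% of all genes called in either direction. The 2 were Rpl39l and Rpl10l, as were the 2 called in Zko_G10. Without any 1 of these 4 libraries only 1 member was called. In Zko_E5 at day 4 against day 0, 5 of 80 were higher and 2 lower (27.7% of all genes in either direction; 5 and 1 with TMM factors), among them Rps27l with 1134 and 1510 RPM at day 4 against 576 and 483 RPM at day 0 (1.31 ± 0.38, limma, adjusted p = 0.00652). Rpl14 read 2323 and 429 RPM at day 4, against 2694 and 2963 RPM at day 0 (-1.50 ± 0.44, adjusted p = 0.00688), and this change rests on day 4 replicate 2, without which it was -0.28. Leaving out day 0 replicate 1, day 0 replicate 2 or day 4 replicate 2 left 3, 2 and 2 members called. In Zko_G10, 2 were higher and 0 lower (10.8% of all genes), and 1 was called without each of 3 of the 4 libraries. The labels give the day 4 and day 0 libraries of Zko_E5 the same extraction text, and likewise the OE_A2 libraries of days 3 and 0, whereas for Zko_G10 the text names either of 2 kits at day 4 and 1 kit at day 0. The summed level of the members in OE_A2 was 27.4% and 24.9% at day 3, against 30.3% and 28.4% at day 0.

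The share of Rpl39l in the sum of Rpl39l and Rpl39 stayed between 1.66% and 2.82% in the 6 day 0 libraries. Its median was 26.5% at day 3, 8.43% at day 3.5 (H18 alone), 16.2% at day 4, 20.3% at day 5, 18.1% at day 7 and 18.3% at day 9, where single libraries ranged over 5.62% to 38.8%. Rpl10l took 0.406% to 0.734% of the sum of Rpl10l and Rpl10 at day 0, and 0.252% to 5.93% at day 9, with medians of 0.638% and 1.92%. The other duplicate pairs are given side by side. Rps27l, a paralogue of Rps27, took a median of 53.4% of its pair at day 0 and 54.3% at day 9, Rpl22l1 43.4% and 34.0%, Rpl36al 27.1% and 29.0%, and Rpl7l1 3.02% and 3.16%. Of the 80 members, 47 share part or all of their 3′ end with other annotated genes over windows of 50 bases, so their counts are uncertain. Among them are Rpl10, Rpl36a, Rps27 and Rpl9, which are wholly shared, Rps2 (78.1% of the windows), Rpl38 (72.8%), Rpl3 (60.9%) and Rps4x (40.4%), whereas Rpl39l, Rpl39, Rpl10l, Rps27l, Rpl15, Rps3 and Rplp0 share none. In the embryonic libraries Rpl39l read 15.3 RPM at E9.5, 170 RPM at E14.5 and 229 RPM at E15.5, and Rpl10l read 5.02, 117 and 129 RPM. These are 1 library per stage, with no test.

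**Figure D2:**
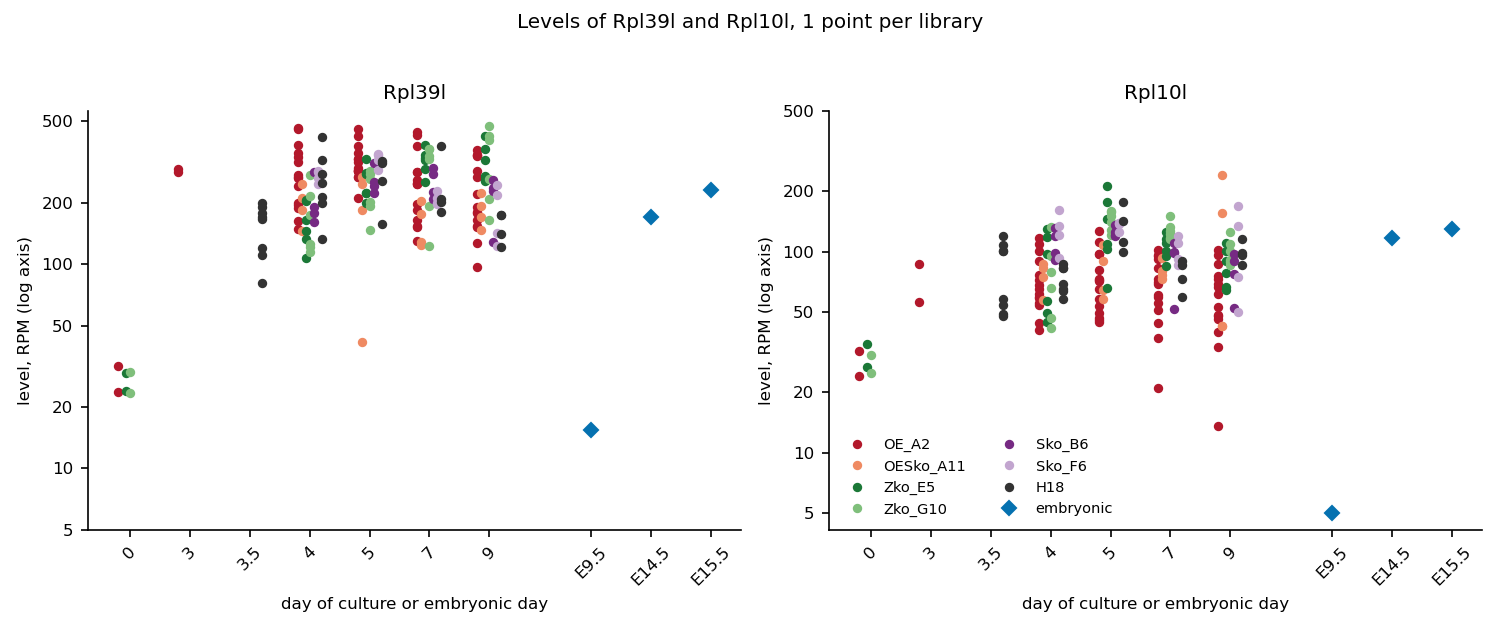
Levels of Rpl39l (left) and Rpl10l (right) in RPM on a log axis, by day of culture and embryonic day, with 1 point per library coloured by line. All 6 day 0 libraries lie between 23.3 and 31.8 RPM for Rpl39l, below every later PGCLC library, and the E9.5 library lies at 15.3 RPM.

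The 4 X-linked members, Rps4x, Rpl10, Rpl36a and Rpl39, differed in level between the clonal lines. Their sum as a percent of all members had a median of 7.65% in Sko_F6 (range 6.35% to 8.95%), 5.07% in OE_A2 (3.74% to 6.14%), 4.92% in Zko_G10 (4.18% to 5.71%), 4.85% in OESko_A11 (4.08% to 6.69%), 4.76% in Zko_E5 (3.78% to 5.60%) and 4.68% in Sko_B6 (4.24% to 5.03%), against 8.04% in the parental line H18 (6.75% to 9.83%). Sko_F6 and H18 did not overlap with OE_A2, Zko_G10, Zko_E5 or Sko_B6. The 6.69% of OESko_A11, which reached into the range of Sko_F6 and not of H18, was that of DoxRA replicate 1 at day 5, and without this library OESko_A11 reached 5.33% and overlapped with neither. Rps4x, a small subunit protein encoded on chromosome X (102184941 to 102189394, minus strand, mm10), had medians of 6907 RPM in Sko_F6, 4175 to 4336 RPM in the other 5 derived lines and 7335 RPM in H18. The 872 other X-linked genes of the table were also higher in Sko_F6 and H18, with medians of 3.02% of reads in Sko_F6, 2.05% to 2.29% in the other derived lines and 3.04% in H18. Xist did not exceed 8.88 RPM in any PGCLC library. In the embryonic libraries the X-linked members took 4.84% of the members' level at E9.5, 6.61% at E14.5 and 6.69% at E15.5, and the other X-linked genes 2.15%, 3.52% and 3.65% of reads.

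Sko_F6 and Sko_B6 carry the same labelled genotype, so their contrast, chosen after the values had been seen, bears on clones alone. In control medium at day 9, Rps4x read 6950 and 8105 RPM in Sko_F6, against 4583 and 5039 RPM in Sko_B6. The libraries did not overlap, and the log2 change was 0.64 ± 0.16 (limma, adjusted p = 0.0464). It was the only member called, 1 of 80, beside 0.262% of all genes in either direction, and the call was lost when any 1 of the 4 libraries was left out. Under B2RA, 0 of 80 members were called by limma (0.427% of all genes), 5 at an unadjusted p under 0.05 and 0 by edgeR, with 0 to 18 under the alternatives, and Rps4x read 3606 and 3730 RPM in Sko_F6, against 2562 and 3185 RPM in Sko_B6.

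**Figure D3:**
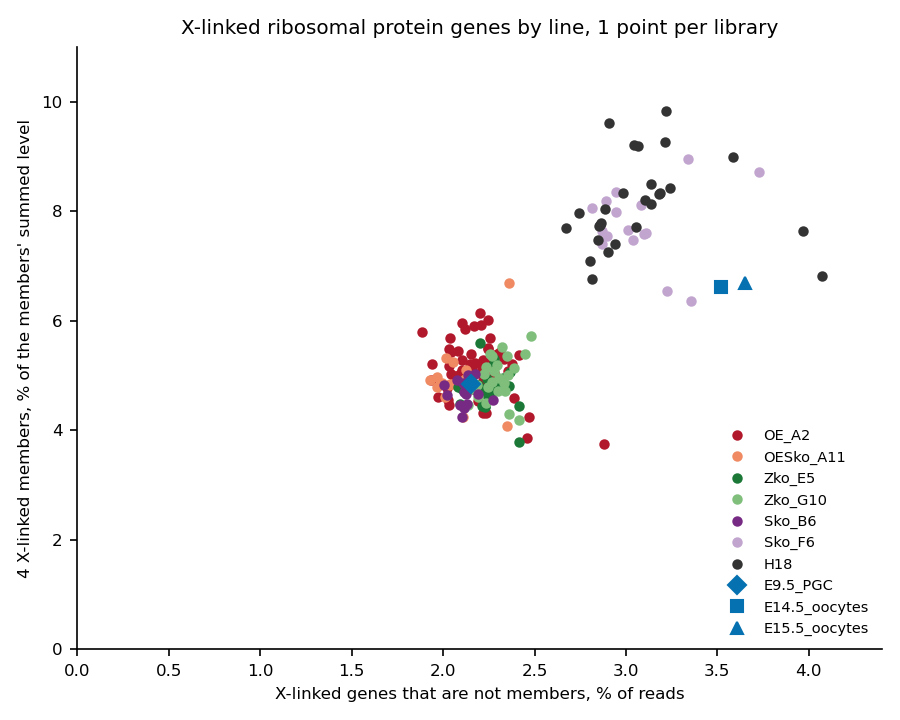
Sum of the 4 X-linked members as a percent of the members' summed level (vertical) against the share of reads of the 872 X-linked genes that are not members (horizontal), 1 point per library, coloured by line. Sko_F6 and H18 libraries lie at 6.35% to 9.83% on the vertical axis, and the other 5 lines at 3.74% to 6.69%.

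Dox with retinoic acid in OE_A2 went with the broadest fall of the members at day 9. The members together took 18.2% and 9.997% of reads with DoxRA, against 23.2% and 23.4% in control medium. By limma, 57 of 80 members were lower and 1 higher, beside 28.9% of all genes tested lower and 33.4% higher, and the median log2 change was -0.92 over the members and 0.11 over all genes. Without DoxRA replicate 2, the library at 9.997%, 31 members were lower and 2 higher; 1153 other short-mRNA genes took 3.12% and 2.68% of reads with DoxRA, against 5.08% and 4.84% in control medium, and the part of mRNA length in the fall was not tested. Summed feeder and stroma markers read 118 and 659 RPM with DoxRA, against 263 and 258 RPM in control medium, and their part in the fall was not tested.

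Rps2 of the small subunit read 1154 and 1043 RPM with DoxRA, against 4060 and 4238 RPM in control medium (log2 change -1.92 ± 0.15, adjusted p = 1.59e-20). Rpl15 of the large subunit read 67.9 and 43.0 RPM with DoxRA, against 210 and 272 RPM (-2.13 ± 0.23, adjusted p = 7.82e-14). Rps4x read 1726 and 1118 RPM, against 4365 and 4079 RPM (-1.60 ± 0.16, adjusted p = 2.13e-15). For these 3 the groups lay far apart in both libraries of DoxRA, including the replicate with the higher summed level. Rpl38, a large subunit protein whose loss in mice alters skeletal patterning, read 105 and 90.1 RPM, against 478 and 367 RPM (-2.09 ± 0.46, adjusted p = 4.82e-05). Rpl39 read 508 and 240 RPM, against 1624 and 1181 RPM (-1.98 ± 0.47, adjusted p = 0.000187). All 4 X-linked members were lower, with a median log2 change of -1.53, beside 53 lower and 1 higher of the 76 autosomal members, with a median of -0.91. The 1 member that rose was Rpl10l, with 102 and 73.3 RPM with DoxRA against 33.4 and 46.3 RPM in control medium (1.11 ± 0.38, adjusted p = 0.00734), a call that was lost without DoxRA replicate 1 or control replicate 1. Relative to the members' own median change, Rpl10l stood 2.06 higher (± 0.41, adjusted p = 6.79e-06) on the log2 scale, and Rps2 fell by 0.98 (± 0.25, adjusted p = 0.000334).

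With Dox alone fewer members were called, against the same control libraries as for DoxRA. The summed level was 21.8% and 21.6% with Dox, against 23.2% and 23.4% in control medium. By limma 9 of 80 members were lower and 0 higher, beside 14.9% of all genes lower and 19.9% higher, with a median log2 change of -0.15 over the members and 0.06 over all genes. Rps2 read 2131 and 2138 RPM with Dox, against 4060 and 4238 RPM (-0.96 ± 0.15, adjusted p = 4.14e-07). Rpl3, which lines the peptidyl transferase centre of the large subunit, read 1478 and 1415 RPM, against 2258 and 2613 RPM (-0.75 ± 0.14, adjusted p = 7e-06). Both stood clear of the control libraries. Rpl38 read 142 and 245 RPM, against 478 and 367 RPM (-1.16 ± 0.46, adjusted p = 0.0389), a call that was lost without either control library or without Dox replicate 1. Rpl15, Rps3, Rps4x, Rpl8, Rplp0 and Rps9 completed the 9, at log2 changes of -0.67 to -0.41. Rpl10l read 66.6 and 68.9 RPM with Dox, against 33.4 and 46.3 RPM, which did not pass the test (0.77 ± 0.38, adjusted p = 0.101). The count was 33 when only the groups compared were fitted and 20 with array weights; it was 6 without any 1 library.

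Set directly against Dox, DoxRA at day 9 had 48 of 80 members lower and 0 higher, beside 15.1% of all genes lower and 9.94% higher, with a median log2 change of -0.79 over the members and 0.08 over all genes. This comparison shares its DoxRA libraries with that of DoxRA against control. Rpl39 read 508 and 240 RPM with DoxRA, against 1088 and 1734 RPM with Dox (-1.97 ± 0.47, adjusted p = 0.000965). Rps27l read 246 and 383 RPM, against 902 and 1129 RPM (-1.71 ± 0.38, adjusted p = 0.000308). Rpl15 read 67.9 and 43.0 RPM, against 147 and 153 RPM (-1.46 ± 0.23, adjusted p = 2.98e-07). The groups did not overlap for any of the 3. The count fell to 14 without DoxRA replicate 2 and to 26 without Dox replicate 2, and was 15 when only the groups compared were fitted.

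**Figure D4:**
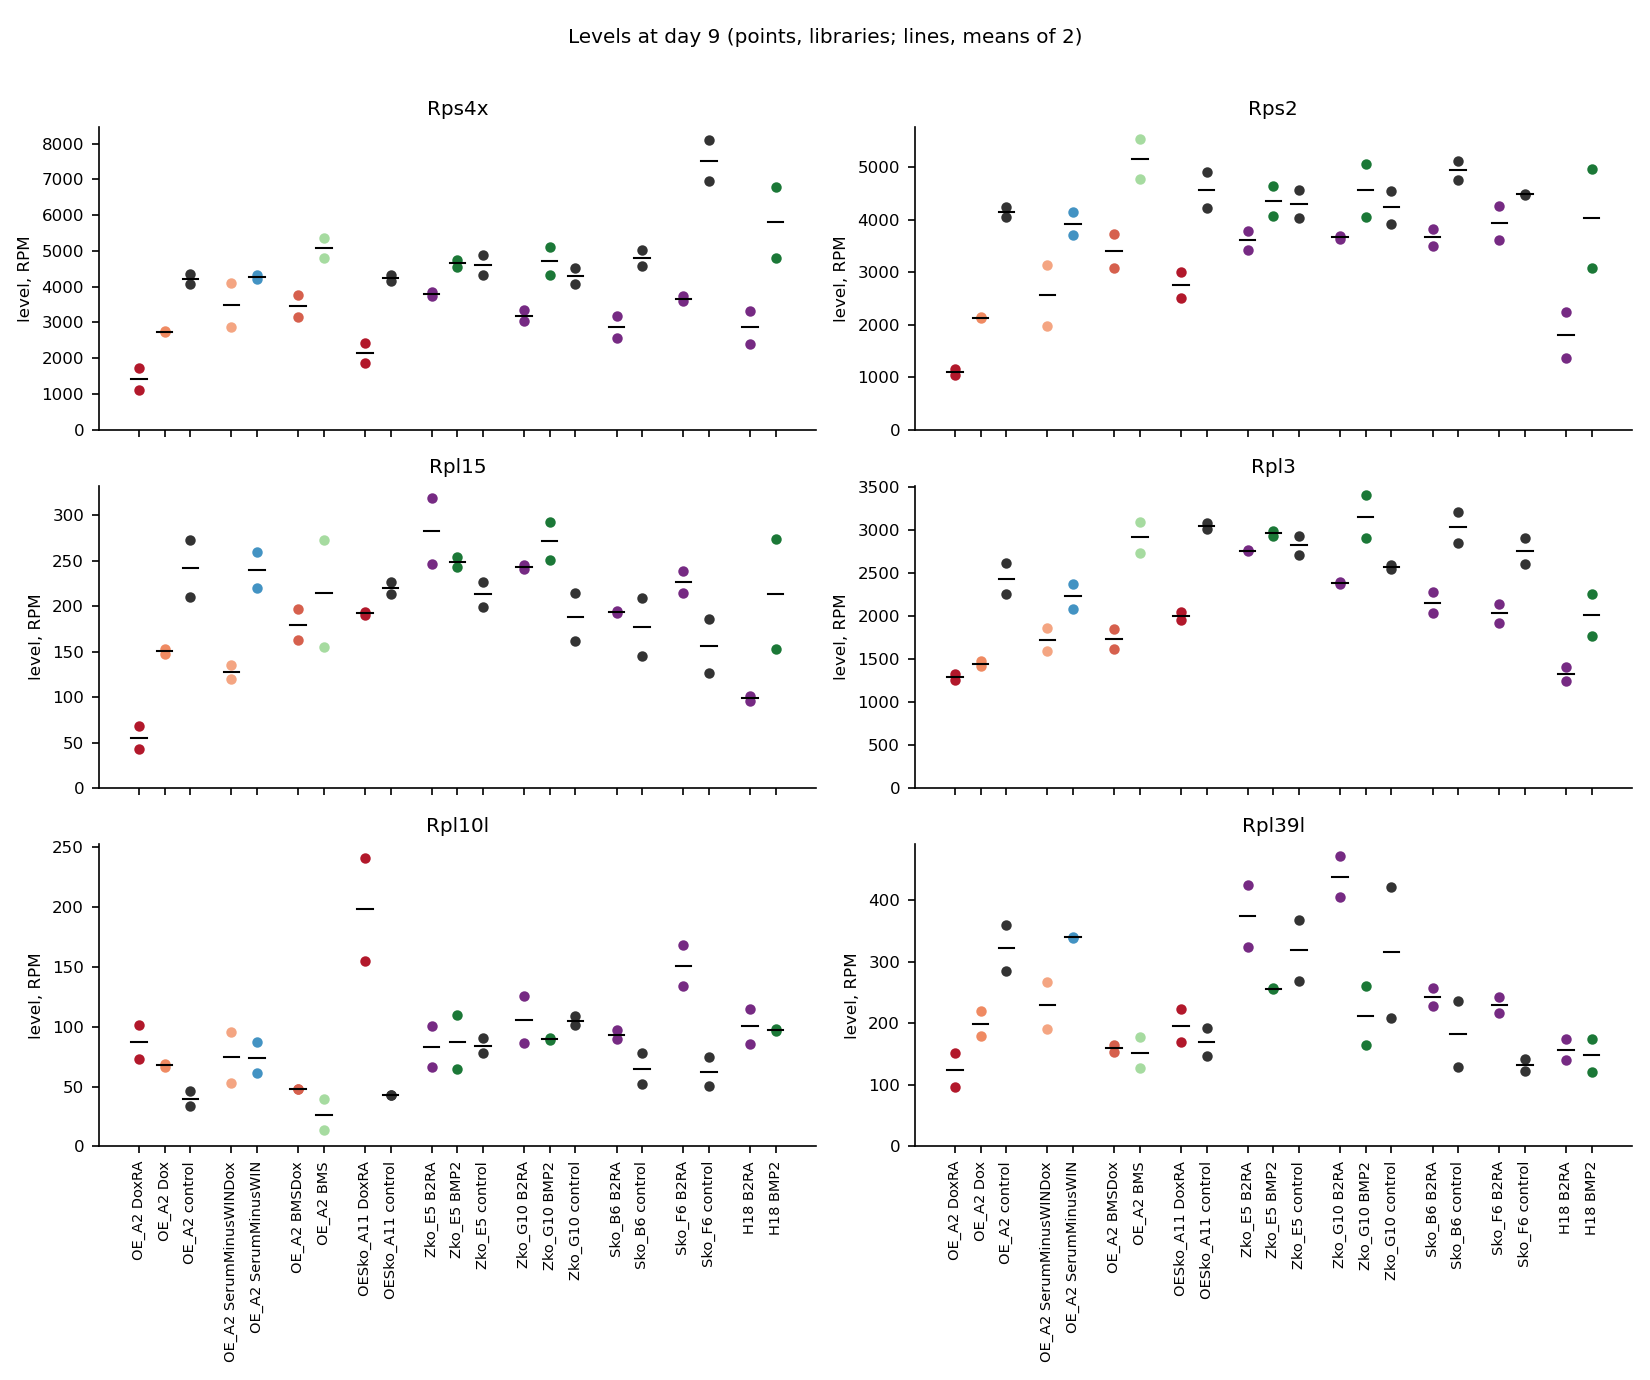
Levels in RPM of Rps4x, Rps2, Rpl15, Rpl3, Rpl10l and Rpl39l at day 9, in each line with treated groups to the left of the control or BMP2 group. Points are libraries and lines are means of 2. Rps2 with DoxRA in OE_A2 lies at 1154 and 1043 RPM, below all other groups shown, and Rpl10l with DoxRA in OESko_A11 lies at 241 and 155 RPM.

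The effect of Dox was also measured in OE_A2 in 2 other media. In BMS medium 14 of 80 members were lower and 1 higher with BMSDox against BMS, beside 9.87% of all genes lower and 23.5% higher, with a median log2 change of -0.19 over the members and 0.23 over all genes. Rps3, a small subunit protein that also takes part in DNA repair, read 2142 and 1778 RPM with BMSDox, against 3832 and 3616 RPM with BMS (-0.93 ± 0.17, adjusted p = 6.04e-06). Rpl3 read 1847 and 1615 RPM, against 3097 and 2732 RPM (-0.75 ± 0.14, adjusted p = 7.06e-06), and Rpl13 read 4615 and 4320 RPM, against 7523 and 7121 RPM (-0.71 ± 0.16, adjusted p = 0.00025). Rpl10l was the 1 higher member, with 47.8 and 48.3 RPM against 13.5 and 39.7 RPM (1.01 ± 0.38, adjusted p = 0.028), and its change was 0.27 without BMS replicate 1. Leaving out BMS replicate 1, BMSDox replicate 2 or BMSDox replicate 1 left 4, 4 and 9 members called. In medium without serum and with WIN, 5 of 80 members were lower with Dox and 0 higher, beside 15.7% of all genes lower and 19.6% higher, with a median log2 change of -0.02 over the members and 0.01 over all genes. These were Rpl15 (120 and 135 RPM with SerumMinusWINDox, against 220 and 260 RPM with SerumMinusWIN; -0.91 ± 0.23, adjusted p = 0.00105), Rplp0, the stalk base protein (2987 and 2227 RPM, against 4540 and 3936 RPM; -0.71 ± 0.17, adjusted p = 0.000371), Rps3 (2327 and 1591 RPM, against 3157 and 2930 RPM; -0.66 ± 0.17, adjusted p = 0.00103), Rps2 and Rpl3. Only 1 was left without SerumMinusWINDox replicate 2, and 8 were called without replicate 1.

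At day 9 the media themselves, without Dox, gave no call among the members by limma. For BMS against control at day 9, 0 of 80 were called, beside 0.708% of all genes higher and 2.68% lower, and 3 had an unadjusted p under 0.05. For SerumMinusWIN against control, 0 of 80 were called, beside 0.011% of all genes in each direction, and 1 had an unadjusted p under 0.05. edgeR on the recovered reads called 0 in both. At day 4, BMS against control had 1 member higher and 0 lower (0.199% of all genes in either direction), which was Rps6, with 453 and 633 RPM with BMS, against 118 and 197 RPM in control medium. Relative to the median member, Rps6 stood lowest of all PGCLC groups in these control libraries. Its counting is also uncertain, since 72.2% of its 3′ end windows are shared with other genes. At day 9, Rpl39l read 127 and 177 RPM with BMS, against 360 and 285 RPM in control medium. Rpl10l read 13.5 and 39.7 RPM with BMS on that day, against 33.4 and 46.3 RPM. The difference of the Dox response between BMS and control medium, and that between SerumMinusWIN and control medium, had 0 of 80 members past the threshold by limma (1.39% of all genes higher and 0.32% lower for BMS; 0% and 0.01% for SerumMinusWIN), with 0 at an unadjusted p under 0.05 and 0 by edgeR in each.

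In the line that also lacked Stra8, OESko_A11, DoxRA at day 9 had fewer members called than in OE_A2. The summed level was 18.02% and 21.5% with DoxRA, against 23.1% and 24.3% in control medium. By limma 14 of 80 members were lower and 1 higher, beside 9.99% of all genes lower and 20.8% higher, with a median log2 change of -0.28 over the members and 0.21 over all genes. Rpl10l read 241 and 155 RPM with DoxRA, against 42.6 and 42.8 RPM in control medium (2.15 ± 0.38, adjusted p = 3.45e-06). It stood clear of the control libraries, and 241 RPM was its highest level in any library. Rps4x read 1852 and 2421 RPM, against 4154 and 4330 RPM (-1.001 ± 0.161, adjusted p = 4.74e-07). Rpl38 read 193 and 240 RPM, against 599 and 613 RPM (-1.49 ± 0.46, adjusted p = 0.00849), and Rps18, a protein of the head of the small subunit, read 1350 and 1913 RPM, against 3049 and 3472 RPM (-1.02 ± 0.23, adjusted p = 0.000326). Rpl15 read 194 and 191 RPM, against 226 and 214 RPM, a difference that did not pass the test (-0.19 ± 0.23, adjusted p = 0.562). Leaving out DoxRA replicate 1 left 4 members called, and leaving out control replicate 2 left 7. Summed feeder and stroma markers read 702 and 899 RPM with DoxRA, against 307 and 384 RPM, and 2 of the 7 tested were higher; their part in these changes was not tested.

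The difference between the DoxRA responses of OESko_A11 and OE_A2 was tested directly. It was above 0 and past the threshold for 16 of 80 members and below 0 for 0, beside 16.1% of all genes above and 6.11% below. The share of members above 0 was near that of all genes. The median was 0.62 over the members and 0.17 over all genes. The largest differences were those of Rpl15 (1.93 ± 0.33, limma, adjusted p = 2.72e-06), Rpl39l (1.61 ± 0.50, adjusted p = 0.0137) and Rpl24, a large subunit protein at the interface of the subunits (1.40 ± 0.31, adjusted p = 0.000395). Rpl24 read 1589 and 2119 RPM with DoxRA against 2149 and 2303 RPM in control medium in OESko_A11, and 1067 and 480 RPM with DoxRA against 2241 and 2330 RPM in OE_A2. Rpl39l read 170 and 223 RPM with DoxRA against 147 and 192 RPM in OESko_A11, and 152 and 96.5 RPM against 360 and 285 RPM in OE_A2. Without OE_A2 DoxRA replicate 2 the count was 4, without replicate 1 it was 40, and the Rpl24 and Rpl39l calls were lost without replicate 2. The Rpl39l call was also lost without replicate 1 of either control group or OESko_A11 DoxRA replicate 2. The lines are 1 clone each, so clone and genotype cannot be told apart.

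In the Zglp1-/- clones few members were called with treatment at day 9. With BMP2 against control, 0 of 80 members were called by limma, beside 1.25% of all genes higher and 0.826% lower, 9 had an unadjusted p under 0.05, and edgeR called 0. Taken singly, Zko_E5 had a median log2 change of 0.10 over the members with 0 called and 0 at an unadjusted p under 0.05 (0.453% of all genes called). Zko_G10 had a median of -0.36, 1 member called, the lower Rpl39, and 33 at an unadjusted p under 0.05 (1.56% of all genes called). With B2RA against control 1 of 80 was lower and 0 higher, beside 9.5% of all genes lower and 16.5% higher. That member was Rps4x, which read 3750 and 3840 RPM in Zko_E5 and 3355 and 3029 RPM in Zko_G10 with B2RA, against 4317 and 4887 RPM and 4084 and 4528 RPM in control medium (-0.35 ± 0.11 over the 2 clones, adjusted p = 0.0141). The libraries did not overlap, and the call was lost without control replicate 2 of either clone or B2RA replicate 2 of Zko_G10. The summed level was 22.2% and 24.9% in Zko_E5 and 19.8% and 19.5% in Zko_G10 with B2RA, against 21.6% and 22.8% and 21.9% and 24.5% in control medium, so that the groups overlapped in Zko_E5 and lay apart, with B2RA lower, in Zko_G10. With B2RA against BMP2, 2 members were higher (11.1% of all genes) and 3 lower (7.55%). Rpl39l read 425 and 324 RPM in Zko_E5 and 404 and 472 RPM in Zko_G10 with B2RA, against 255 and 258 RPM and 260 and 164 RPM with BMP2 (0.80 ± 0.25, adjusted p = 0.0166). Rps28, named after its values were seen, was the other higher member, and Rps4x (-0.43 ± 0.11, adjusted p = 0.00427), Rps3 and Rps2 (-0.29 ± 0.11, adjusted p = 0.0499) were the lower ones. The count ran from 1 to 10 when single libraries were left out, and with TMM factors 7 members were lower and 0 higher.

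In the Stra8-/- clones part of the members were lower with B2RA at day 9, and the paralogues Rpl10l and Rpl39l were higher, calls that did not hold with TMM factors. By limma 23 of 80 members were lower and 2 higher, beside 12.8% of all genes lower and 32.9% higher, with a median log2 change of -0.28 over the members and 0.23 over all genes. The summed level was 21.1% and 21.5% in Sko_B6 and 19.2% and 17.6% in Sko_F6 with B2RA, against 24.5% and 25.6% and 21.8% and 23.9% in control medium. Rps4x read 2562 and 3185 RPM in Sko_B6 and 3606 and 3730 RPM in Sko_F6 with B2RA, against 4583 and 5039 RPM and 6950 and 8105 RPM in control medium (-0.89 ± 0.11, adjusted p = 1.51e-10). Within each clone the groups stood apart. Rpl38 read 365 and 410 RPM in Sko_B6 and 216 and 303 RPM in Sko_F6, against 646 and 600 RPM and 549 and 872 RPM (-1.06 ± 0.32, adjusted p = 0.00506). Rpl39 read 1184 and 1154 RPM in Sko_B6 and 722 and 768 RPM in Sko_F6, against 1427 and 1515 RPM and 1755 and 2392 RPM (-0.89 ± 0.34, adjusted p = 0.023), a call lost without replicate 1 of Sko_F6 B2RA or replicate 2 of Sko_F6 control, Sko_B6 control or Sko_B6 B2RA. Rpl10l read 97.4 and 89.5 RPM in Sko_B6 and 168 and 134 RPM in Sko_F6 with B2RA, against 77.7 and 52.5 RPM and 50.2 and 74.9 RPM in control medium (0.91 ± 0.27, adjusted p = 0.00317). Rpl39l read 228 and 258 RPM and 243 and 217 RPM with B2RA, against 236 and 128 RPM and 122 and 142 RPM (0.63 ± 0.25, adjusted p = 0.0323), with overlap in Sko_B6, and the call was lost without any 1 of 4 of the 8 libraries. With scaling by TMM factors 46 members were called instead of 25, and neither Rpl10l nor Rpl39l was; leaving out control replicate 2 left 14 members called in the case of Sko_B6 and 15 in that of Sko_F6.

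The difference of the B2RA response between the Stra8-/- and the Zglp1-/- clones was below 0 and past the threshold for 4 of 80 members and above 0 for 0, beside 2.76% of all genes below and 9.03% above. These were Rplp0 (-0.68 ± 0.17, limma, adjusted p = 0.00326), Rps4x (-0.54 ± 0.16, adjusted p = 0.0172), Rpl4 (-0.42 ± 0.14, adjusted p = 0.0371) and Rpl3. Rplp0 read 3381 and 3363 RPM in Sko_B6 and 3891 and 3138 RPM in Sko_F6 with B2RA, against 5434 and 5604 RPM and 5741 and 5219 RPM in control medium. In the Zglp1-/- clones it read 3912 and 4700 RPM and 4506 and 5072 RPM with B2RA, against 4095 and 4890 RPM and 4331 and 4859 RPM. Its B2RA and control libraries did not overlap in either Stra8-/- clone, and did in both Zglp1-/- clones. Leaving out single libraries left 1 to 4 members called, with 1 without B2RA replicate 1 of Sko_B6 or without control replicate 2 of Sko_B6 or Sko_F6.

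In the parental line H18 at day 9, B2RA against BMP2 had 17 of 80 members lower and 0 higher, beside 11.8% of all genes lower and 13.7% higher, with a median log2 change of -0.33 over the members and 0.07 over all genes. The summed level was 14.6% and 13.1% with B2RA, against 18.7% and 16.9% with BMP2. Rps2 read 1371 and 2246 RPM with B2RA, against 3086 and 4965 RPM with BMP2 (-1.16 ± 0.15, adjusted p = 3.71e-09). Rps4x read 2409 and 3334 RPM, against 4814 and 6800 RPM (-1.01 ± 0.16, adjusted p = 5.91e-07), and Rpl15 read 102 and 95.4 RPM, against 153 and 274 RPM (-1.05 ± 0.23, adjusted p = 0.000273). The groups did not overlap for these 3. When only the 4 libraries compared were fitted, no member was called, and without BMP2 replicate 2 or B2RA replicate 1 the count was 4 and 11. Rpl10l (85.6 and 115 RPM with B2RA, 96.1 and 98.0 RPM with BMP2) and Rpl39l (174 and 140 RPM, 175 and 121 RPM) did not pass the test. Summed feeder and stroma markers read 1015 and 342 RPM with B2RA, against 192 and 478 RPM with BMP2, and 4 of the 10 tested were higher. Summed gonadal soma markers read 205 and 45.5 RPM, against 10.5 and 13.1 RPM, with Nr5a1 and Amh at 0 in all 4 libraries. Their part in the members' change was not tested.

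Against H18 under the same treatment, autosomal members were higher in the knockout clones, with few calls in Zko_G10 under BMP2. Zko under B2RA had 49 of 80 members higher and 1 lower, beside 24.6% of all genes higher and 30.8% lower, with a median log2 change of 0.64 over the members and -0.09 over all genes. The 49 were all among the 76 autosomal members, and the 1 lower member was the X-linked Rpl10, with 2956 and 3482 RPM in Zko_E5 and 3048 and 3348 RPM in Zko_G10, against 4002 and 4842 RPM in H18 (-0.46 ± 0.16, adjusted p = 0.00893, lost without H18 replicate 2). Over all libraries, X-linked genes outside the members also took more reads in H18 (median 3.04%) than in Zko_E5 (2.23%) or Zko_G10 (2.29%). The part of this line difference in the split was not tested, and the 3′ end of Rpl10 is wholly shared with other genes. Rpl15 read 246 and 318 RPM in Zko_E5 and 240 and 245 RPM in Zko_G10, against 102 and 95.4 RPM in H18 (1.40 ± 0.20, adjusted p = 3.57e-09). Rpl39l read 425 and 324 RPM and 404 and 472 RPM, against 174 and 140 RPM (1.36 ± 0.31, adjusted p = 0.000105). Rps18 read 3531 and 3835 RPM and 3464 and 3077 RPM, against 1584 and 1185 RPM (1.34 ± 0.20, adjusted p = 1.21e-08). None of the 3 overlapped with H18. Taken singly, Zko_E5 had 56 members higher and 1 lower, beside 2146 of 9856 genes higher and 3157 lower (53.8% in either direction). Zko_G10 had 38 higher and 1 lower, beside 2237 of 9848 genes higher and 2428 lower (47.4%).

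Under BMP2, Zko against H18 had 18 of 80 members higher and 1 lower, beside 11.1% of all genes higher and 19.4% lower, with a median log2 change of 0.32 over the members and -0.13 over all genes. Rpl28 read 2784 and 2535 RPM in Zko_E5 and 2476 and 1650 RPM in Zko_G10, against 1517 and 1217 RPM in H18 (0.77 ± 0.22, adjusted p = 0.00506). Rps13 read 2130 and 2143 RPM and 1785 and 1428 RPM, against 1240 and 1021 RPM (0.71 ± 0.21, adjusted p = 0.0065), and Rpl3 read 2937 and 2987 RPM and 2904 and 3408 RPM, against 1765 and 2255 RPM (0.61 ± 0.12, adjusted p = 2.94e-05). Rpl10 was again the lower one, at 3423 and 3771 RPM and 3524 and 4080 RPM against 4933 and 5079 RPM (-0.44 ± 0.16, adjusted p = 0.0233), a call lost with TMM factors, without either H18 library and without BMP2 replicate 1 of either clone. Without H18 replicate 1 only 7 members were called. Taken singly under BMP2, Zko_E5 had 23 members higher and 1 lower, beside 890 of 9326 genes higher and 1830 lower. Zko_G10 had 6 of 80 higher and 2 lower, beside 703 of 9229 genes higher and 1109 lower, so its share higher was near that of all genes. Summed feeder and stroma markers read 1067 and 937 RPM in Zko_E5 and 638 and 610 RPM in Zko_G10, against 192 and 478 RPM in H18. Of 10 markers 6 were higher, and their part was not tested. Sko against H18 under B2RA had 43 of 80 members higher and 0 lower, beside 20.5% of all genes higher and 23% lower, with a median of 0.58 over the members and -0.03 over all genes, again all autosomal. X-linked genes outside the members had medians of 3.02% of reads in Sko_F6, 2.12% in Sko_B6 and 3.04% in H18. The part of these line differences was not tested. Rpl18 read 3301 and 3086 RPM in Sko_B6 and 3171 and 2655 RPM in Sko_F6, against 1275 and 1340 RPM in H18 (1.22 ± 0.18, adjusted p = 1.15e-08). Rps15 (1.42 ± 0.41, adjusted p = 0.00348) and Rpl36 (1.21 ± 0.31, adjusted p = 0.000822) were the other leading members. Without H18 replicate 2 the count was 22. Taken singly, Sko_B6 had 43 members higher and 0 lower, beside 1588 of 9804 genes higher and 2011 lower. Sko_F6 had 26 higher and 0 lower, beside 1790 of 9805 genes higher and 1816 lower. The H18 libraries of these comparisons are shared, so Zko and Sko values are not independent of each other. The lines differ in clone as well as genotype.

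**Figure D5:**
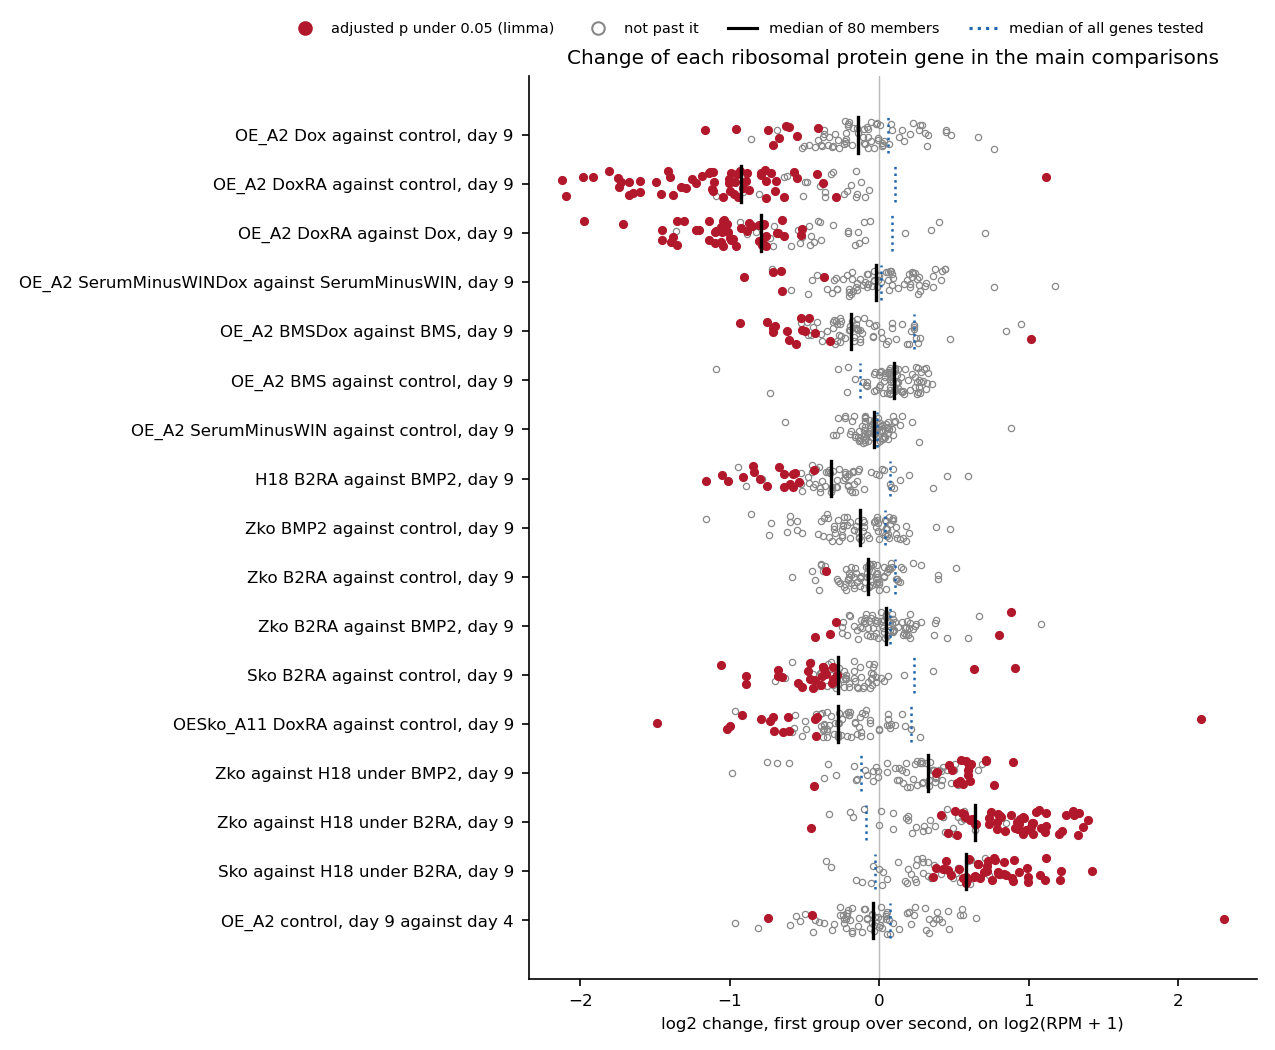
Log2 change of each of the 80 members on log2(RPM + 1), first-named group over second, in the 17 main comparisons. Filled points passed limma's adjusted p of 0.05, black bars are the members' median and dotted bars the median of all genes tested. DoxRA against control in OE_A2 has a members' median of -0.92, and Zko against H18 under B2RA one of 0.64.

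With B2RA few or no members were called before day 9. B2RA against BMP2 in H18 had 0 members called by limma at day 4 (3.94% of all genes; 4 members at an unadjusted p under 0.05) and day 5 (0.23%; 3 members) and 3 at day 7 (6.53%), which were Rps4x, Rpl3 and Rpl7, all lower. Rps4x in H18 under B2RA read 7817 RPM at day 4 (1 library), 7900 and 7335 RPM at day 5, 6212 and 5370 RPM at day 7 and 2409 and 3334 RPM at day 9, and under BMP2 it read 7979 and 8214, 7709 and 7571, 7219 and 9393, and 4814 and 6800 RPM at these days. Within B2RA, day 9 against day 5 had 56 of 80 members lower and 0 higher (56% of all genes in either direction), with Rps4x at -1.43 ± 0.16 (adjusted p = 7.92e-13) and Rps2 at -1.52 ± 0.15 (adjusted p = 5.99e-15), and 39 without day 9 replicate 2. From day 5 to day 9, 1895 of 9590 genes were lower and 3475 higher. In H18 at day 3.5, 0 members were called with BMP2, RA or B2RA against control by limma, beside 0.0119%, 0% and 0% of all genes. At an unadjusted p under 0.05 there were 0, 1 and 12 members. In the Zko clones B2RA against control had 0 called at days 4, 5 and 7 (0.681%, 1.54% and 9.8% of all genes), with 0, 13 and 3 at an unadjusted p under 0.05. In the Sko clones the same contrast had 0 called at days 4 and 5 (0.208% and 0.602%), with 0 at an unadjusted p under 0.05 on both, and 1 lower at day 7 (19.2%), which was Rplp0.

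In OESko_A11, DoxRA against control had 0 members called at day 4 (1.39% of all genes) and 0 at day 7 (8.84%). On each of these days 1 had an unadjusted p under 0.05. At day 5, however, 50 members were lower and 1 higher, beside 545 of 8628 genes lower and 989 higher (17.8% in either direction). DoxRA replicate 1 of that day took 11.2% of reads for the members, against 25.2% in replicate 2 and 25.2% and 23.8% in the control libraries. Without replicate 1 no member was called, and Rpl22, at -1.08 ± 0.31 (adjusted p = 0.01) with it, was at 0.03. In OE_A2 the Dox and DoxRA libraries of days 4, 5 and 7 mostly carry a label text that names 1 extraction kit, while that of the control libraries names either of 2 kits, so treatment and any difference in kit cannot be told apart there. Dox against control had 11 members lower and 2 higher at day 4 (15.8% of all genes), 3 and 3 at day 5 (18.6%) and 7 and 2 at day 7 (38.1%). DoxRA against Dox, with the same text, had 0 called at day 4 (0.238% of all genes) and day 5 (0.89%), with 0 and 3 at an unadjusted p under 0.05. Dox within SerumMinusWIN medium had 1, 1 and 10 members called at days 4, 5 and 7 (5.65%, 8.2% and 31.9% of all genes), and Dox within BMS medium 0, 1 and 6 (15.1%, 17.9% and 25.8%). At day 7 of DoxRA against Dox, 2 labelled samples answer to DoxRA replicate 2 and differ in that text, so the kits named for it are not known, and 3 members were lower (3.23%), namely Rpl15, Rps4x and Rps2.

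In OE_A2 control medium 1 of 80 members was higher and 2 lower at day 9 against day 4, beside 9.69% of all genes higher and 5.97% lower. Rps6, the small subunit protein phosphorylated downstream of mTOR, read 739 and 776 RPM at day 9, against 118 and 197 RPM at day 4 (2.31 ± 0.38, adjusted p = 6.78e-06). Its level was 589 and 379 RPM at day 5 and 469 and 318 RPM at day 7. The 2 day 4 control libraries lay below the other lines: the day 4 control libraries of Zko_E5, Zko_G10, Sko_B6, Sko_F6 and OESko_A11 read 381 to 869 RPM. Most of its 3′ end is shared with other annotated genes (72.2% of the 50-base windows), so the counting of Rps6 is uncertain. Rpl29 read 840 and 797 RPM at day 9, against 1339 and 1408 RPM at day 4 (-0.75 ± 0.23, adjusted p = 0.0156), and Rps2 4060 and 4238 RPM, against 5483 and 5863 RPM (-0.45 ± 0.15, adjusted p = 0.033). Both calls were lost without any 1 of the 4 libraries, and with TMM factors 1 member was higher and 4 lower. The same contrast had 4 members higher and 2 lower in Zko (29.7% of all genes in either direction), 1 and 1 in Sko (20.4%) and 0 in OESko_A11 (12.2%), and Rps6 was not called in any of these.

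Relative to the median member, the group means of Rpl39l (SD over the 98 groups 0.72 on the log2 scale, SD within groups 0.29), Rpl10l (0.68 and 0.42), Rpl38 (0.63 and 0.40), Rps27 (0.59 and 0.61) and Rpl39 (0.53 and 0.42) varied most. For Rps27 the SD of single libraries within groups was as large as the SD of the group means. Most group means are of 2 libraries, so the SDs of each pair are unlike measures and were not tested against each other. The steadiest members were Rps16 (0.11 and 0.13), Rpl11 (0.12 and 0.087) and Rpl9 (0.12 and 0.13), and Rpl11 binds MDM2 when ribosome assembly is disturbed. Rpl39l stood highest in Zko_G10 under B2RA at day 9 and lowest in OE_A2 at day 0. Rpl10l stood highest in OESko_A11 with DoxRA at day 9 and lowest in OE_A2 at day 0.

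Other genes of the pathway were counted beside the members. The lists were compiled with earlier results of these data known. Of all genes tested, 28.9% were lower and 33.4% higher with DoxRA against control in OE_A2, 14.9% and 19.9% with Dox, 9.87% and 23.5% with BMSDox against BMS, 11.8% and 13.7% with B2RA against BMP2 in H18, 9.5% and 16.5% with B2RA against control in Zko, and 12.8% and 32.9% in Sko. Of 41 ribosome biogenesis genes tested, 17 were lower and 7 higher with DoxRA against control in OE_A2 at day 9 (median log2 change -0.46), 15 lower and 5 higher with Dox against control (-0.44), 15 lower and 1 higher with B2RA against BMP2 in H18 (-0.43), and, of 42, 12 lower and 0 higher with B2RA against control in Zko (-0.32) and 18 lower and 0 higher in Sko (-0.34). With DoxRA, Nhp2 of the box H/ACA particle read 72.8 and 76.5 RPM, against 309 and 257 RPM, while Heatr1, a factor of the small subunit processome, read 188 and 224 RPM, against 57.8 and 49.6 RPM. Of 18 translation factor genes with pyrimidine-tract mRNAs, 12 were lower and 1 higher with DoxRA (-0.65), 6 and 1 with Dox, 8 and 0 with B2RA in H18, and 7 and 0 with B2RA in Sko. Of 16 tested regulators of ribosome production, 6 were lower and 4 higher with DoxRA (28.9% and 33.4% of all genes), with Mycn at 11.8 and 4.78 RPM against 49.9 and 96.3 RPM, and Mtor at 285 and 229 RPM against 107 and 130 RPM. Of 75 mitochondrial ribosomal protein genes, 24 were lower and 18 higher with DoxRA (-0.07), 2 lower and 19 higher with B2RA in Sko (0.18), and 3 lower and 22 higher with BMSDox (0.28), beside the shares of all genes given for these comparisons. Fau (874 and 482 RPM with DoxRA, against 1573 and 1557 RPM) and Gnb2l1 were also lower. Of 14 tested paralogue-list genes, 12 were lower and 1 higher with DoxRA. Most genes of this list are members already counted above, so its count is not separate from theirs. Of the 12 germ cell markers 11 were tested there, with 6 lower and 5 higher, and no gonadal soma marker reached the filter.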

How the data were processed

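3′-end mRNA libraries were sequenced from sorted PGCLCs and embryonic germ cells. The tools listed, per the submitters' processing notes, include HTSeq (0.9.1), SAMtools (1.3), Bowtie (1.1.2), TopHat2 (2.1.0) and cutadapt (1.9.1), with the build mm10; their roles, the annotation, strand and the handling of reads with several matches are not given in the sources used here. The authors deposited one table of RPM values per gene, from which 194 of 195 columns were used; 1 column matched no sample label, and 2 labelled samples had no column of their own. The deposited RPM are scaled to the reads assigned to endogenous genes; 3 lines shifted by an empty cell were realigned. In 14 columns the authors' scaled signal, as deposited, sums above the common total because transgene rows on the same scale are added. Values were whole multiples of 1 read (100% within a tolerance of 0.05), which gave the reads per library. Duplicated 3′ ends were counted from the annotation over 50-base windows of the last 200 bases.

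Tests used limma 3.58.1 (R 4.3.3; trend and robust empirical Bayes) on log2(RPM + 1), with all 191 PGCLC libraries in 98 groups in the fit, clones of a genotype averaged with equal weight, and genes tested when at least 2 compared libraries reached 10 RPM. Fold changes on this scale understate changes of low genes. P-values were adjusted by Benjamini-Hochberg over all genes tested and called at 0.05. Alternatives were other pseudocounts, no filter, TMM factors, array weights, only the groups compared, a replicate block, edgeR 4.0.16 on the recovered reads, and each library left out. The procedure was tested on simulated data in which genes varied independently and no library had the members shifted together. That test therefore says nothing about the counts of members. The SE of a change rests on a residual spread per gene pooled over all groups of the fit, and covers the spread between these libraries only.

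Named genes were every paralogue-list gene, up to 3 called members with the largest rise and 3 with the largest fall per main comparison without overlap between libraries, the 5 most and 3 least variable members, and up to 2 called genes per direction of each other list; others were chosen after their values were seen. Some genes that entered the sums and counts are not reported here by name. The members and the lists were chosen with earlier results of these data known. 2 extraction texts appear in the labels, 1 naming a single kit and 1 either of 2 kits. OE_A2 Dox and DoxRA libraries of days 4 to 7 mostly differ in it from their controls, and all day 9 libraries share one. For DoxRA replicate 2 of day 7, 2 labelled samples answer to 1 column. The pairing of replicate numbers was not established.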

Additional observations from a re-analysis of the deposited data

Results flagged for a closer look

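Some responses differed between lines or clones when the difference itself was tested with limma. The DoxRA response at day 9 differed between OESko_A11 and OE_A2, which are 1 clone each, for 16 of 80 members. All had a larger value in OESko_A11, beside 16.1% of all genes above 0 and 6.11% below. The share of members above 0 was thus near that of all genes. The named ones were Rpl15 (1.93 on the log2 scale), Rpl39l (1.61) and Rpl24 (1.40). The count was 4 to 40 when single libraries were left out and 2 by edgeR, and the Rpl39l and Rpl24 calls were lost without OE_A2 DoxRA replicate 2. The B2RA response at day 9 differed between the Stra8-/- and Zglp1-/- clones for 4 of 80 members, all with a smaller value in the Stra8-/- clones, beside 2.76% of all genes below 0 and 9.03% above. Among them were Rplp0 (-0.68), Rps4x (-0.54) and Rpl4 (-0.42). The count was 1 to 4 when single libraries were left out and 1 by edgeR.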

How the results depend on the processing

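Counts of members called are given here. Over the alternatives other than leaving out a library, the balance of higher and lower calls turned in 5 of 252 counts. Other pseudocounts, no filter and a replicate block over all groups kept every count within 1.5 times, apart from Sko_F6 against Sko_B6 in control medium, which was 0 with a pseudocount of 0.5. TMM factors moved the median log2 change of all genes by -0.28 (Sko B2RA) to 0.16 (Zko against H18 under BMP2). A TMM factor scales all genes of a library alike, so the members' median minus that of all genes could hardly move. Its change of at most 0.0084 therefore tests nothing. With TMM factors the counts were 6 for the difference of DoxRA responses, 23 for BMSDox against BMS, 5 for OE_A2 control day 9 against day 4, 1 for OE_A2 day 3 against day 0, 23 for OESko_A11 DoxRA, 46 for Sko B2RA, 0 for Sko_F6 against Sko_B6 in control medium, 30 for Zko against H18 under BMP2 and 9 for Zko B2RA against control. Array weights gave 5 for OE_A2 control over time, 20 for Dox, 24 for OESko_A11 at day 5, 1 and 2 for Sko_F6 against Sko_B6 with B2RA and control medium, 1 for Zko B2RA against BMP2, 0 for Zko B2RA against control and 4 for Zko_G10 day 4 against day 0. edgeR gave 1 for the difference of B2RA responses, 2 for that of DoxRA responses, 1 for OE_A2 control over time, 29 for DoxRA against Dox, 1 for OE_A2 day 3, 4 for OESko_A11 at day 5, 0 for Sko_F6 against Sko_B6 in control medium, 1 for Zko B2RA against BMP2, 3 for Zko_E5 and 1 for Zko_G10 day 4 against day 0. With only the groups compared the counts were 7 for the difference of DoxRA responses, 0 for H18, 7 for OE_A2 control over time, 33 for Dox, 15 for DoxRA against Dox, 3 for SerumMinusWINDox, 0 and 25 for OESko_A11 at days 5 and 9, 45 for Sko B2RA, 5 and 0 for Sko_F6 against Sko_B6 with B2RA and control medium, 12 for Zko against H18 under BMP2, 2 for Zko B2RA against BMP2, 4 for Zko B2RA against control, 3 for Zko_E5 and 18 for Zko_G10 day 4 against day 0. The pairing of replicates was not established; a replicate block in only the groups compared gave 1 for the difference of Dox responses in BMS, 4 for that of DoxRA responses, 4 for H18, 1 for BMS, 31 for BMSDox, 17 for OE_A2 control over time, 31 for Dox, 5 for SerumMinusWIN, 32 for OE_A2 day 3, 2 and 37 for OESko_A11 at days 5 and 9, 54 for Sko B2RA, 18 and 0 for Sko_F6 against Sko_B6, 3, 5 and 1 for Zko B2RA against BMP2, B2RA against control and BMP2 against control, and 3 and 19 for Zko_E5 and Zko_G10 day 4 against day 0.

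Leaving out single libraries gave 4 to 18 for H18 B2RA against BMP2, 39 to 56 for H18 day 9 against day 5, 0 to 70 and 4 to 13 for OESko_A11 at days 5 and 9, 0 to 1 for BMS, 4 to 11 for BMSDox, 6 for Dox, 14 to 60 for DoxRA against Dox, 33 to 65 for DoxRA, 1 to 8 for SerumMinusWINDox, 1 for OE_A2 control over time and for OE_A2 day 3, 14 to 24 for Sko B2RA, 22 to 40 for Sko against H18, 0 for Sko_F6 against Sko_B6, 1 to 10 for Zko B2RA against BMP2, 0 to 4 for Zko B2RA against control, 0 to 3 for Zko BMP2 against control, 39 to 51 and 7 to 20 for Zko against H18 under B2RA and BMP2, 2 to 7 for Zko_E5 and 1 to 2 for Zko_G10 day 4 against day 0, 1 to 4 for the difference of B2RA responses and 4 to 40 for that of DoxRA responses. For OE_A2 control over time and Zko B2RA against BMP2 (4 and 10 without single libraries) the balance of higher and lower calls turned. Rpl22, log2 change, OESko_A11 DoxRA against control, day 5, ran from -2.18 without DoxRA replicate 2 to 0.0255 without DoxRA replicate 1. Rpl36al, log2 change, OESko_A11 DoxRA against control, day 5, ran from -2.15 to 0.0887 in the same order. The causes were not tested. Most groups have 2 libraries, and 1 read is worth up to 1.14 RPM, which limits the lowest members most.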
